A study of Saccharomyces cerevisiae S288C with 4 samples.

Results

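The mitochondrial ribosome is made of proteins that are encoded in the nucleus, translated in the cytosol and imported. The mRNAs of 69 of these proteins were compared between *tho2Δ* and WT yeast. The 69 genes were taken by symbol from the 6396 genes of the deposited table: *MRPL*, *MRPS* or *RSM* followed by digits, with *MRP1*, *MRP2*, *MRP4*, *MRP7*, *MRP10*, *MRP13*, *MRP17*, *MRP20*, *MRP21*, *MRP49*, *MRP51*, *NAM9*, *IMG1*, *IMG2* and *RML2*. The rule used no measured value. Of the 69 proteins, 40 belong to the large and 29 to the small subunit.

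The *tho2Δ* strain was FY254, a haploid MATa strain with *his3Δ1*, *leu2Δ0*, *met15Δ0* and *ura3Δ0* in which the KanMX4 cassette replaces *THO2*, a subunit gene of the THO complex that couples transcription to mRNP assembly and export. The WT strain was BY4741, with the same mating type and the same 4 auxotrophic alleles. Each genotype was given as 1 strain, grown in rich glucose medium (YPD) at 30°C to mid-log phase. Each was sequenced as 2 libraries, numbered 3 and 4 in the labels. No source states whether the duplicates came from separate cultures. The p-values therefore rest on the spread between libraries alone. The *LEU2* counts given below differ widely between the libraries of each strain. Against counting noise, at library totals, a strain's 2 libraries differed by a median chi-square per gene of 2.47 in *tho2Δ* and 41.6 in WT. At that scale a difference in composition adds to the value. The spread is therefore not counting noise alone. Whether it is biological or technical is not stated. The labels name a column kit for RNA extraction, whereas the study's methods describe hot phenol.

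The mitoribosome translates the few mRNAs of the mitochondrial genome, which encode core subunits of the respiratory chain and of ATP synthase, and one protein of the ribosome itself. Its proteins are of different origin. Many are kin of bacterial ribosomal proteins, and the others were added in the mitochondrial lineage. In budding yeast the mRNAs of this group are the best known ligands of Puf3, an RNA-binding protein that recognizes the element UGUANAUA (N, any base) in the 3′ untranslated region and is known for its part in the decay, localization and translation of these messages. The cytosolic ribosomal protein genes, by contrast, are controlled by Rap1, Ifh1 and Sfp1.

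The Puf3 element was read from the genome in the 200 bases after the stop codon, on the transcript strand. It was present in 68 of the 69 genes (98.6%), beside 831 of the 5744 protein-coding genes that were tested and had a gene model (14.5%). The exception was *RSM22*, which encodes a methyltransferase-like protein counted with the small subunit. The members held 82 matches, 1 in each of 55 genes and more in 13 genes, at 8 to 165 bases after the stop codon (median 54.5). The element was not particular to these 69 genes. It was found in all 10 mitoribosomal protein genes outside the symbol rule, all 13 mitochondrial aminoacyl-tRNA synthetase genes, 17 of 21 translational activator genes, 10 of 13 genes of mitoribosome assembly and mitochondrial transcription and 7 of 10 translation factor genes. A match is a string in the genome, and whether Puf3 binds it was not measured. The sites are shown for the 3 genes called higher in *tho2Δ*, for the members with the lowest and the highest fold change, for the most and least abundant members, and for *NAM9*, the member nearest to *THO2*. Each line gives 30 bases from build R64 (RefSeq), 5′ to 3′, with the element (TGTANATA in DNA letters) in capitals.

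*RSM23*, chrVII:267626-267655, minus strand: cccatttctcaTGTACATAtaaatagataa
*RSM10*, chrIV:540462-540491, plus strand: gatttcgtactTGTAAATAaaataggtgaa
*MRP7*, chrXIV:621243-621272, minus strand: ttaagaatgccTGTAAATAttactattttg
*MRP10*, chrIV:372580-372609, plus strand: agtcatggcctTGTATATAcaaattaaata
*MRPL50*, chrXIV:669719-669748, minus strand: gcgtacaatctTGTATATAggcaacatcgc
*MRPS12*, chrXIV:694269-694298, minus strand: atacaacctttTGTAAATAgcaatgaccat
*MRPL4*, chrXII:1015467-1015496, plus strand: accctctctccTGTAAATAtatatatatat
*NAM9*, chrXIV:368522-368551, minus strand: tctctttacacTGTAAATAtttaatttttt

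The fifth base of the element varied among members. TGTAAATA was found 38 times, TGTATATA 26 times, TGTACATA 17 times and TGTAGATA 1 time. A C stood at the second base before the element in 54 of the 82 matches, and among the sites shown in all but those of *MRPS12* and *NAM9*. *RSM19*, which encodes the kin of bacterial S19, carried 3 matches, the most of any member. The 3 genes called higher and *MRPL50*, with the lowest fold change, each had 1 match.

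**Figure D1:**
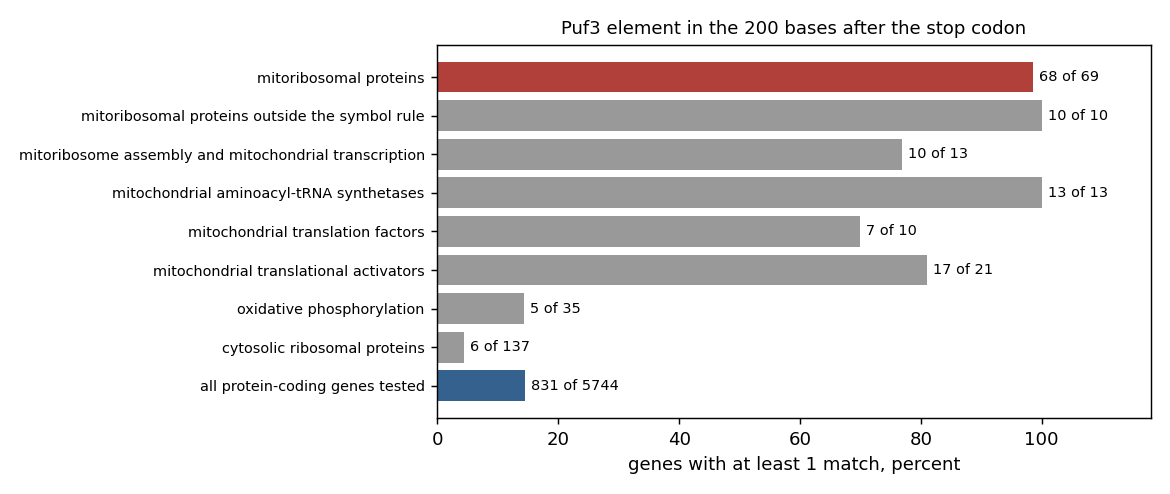
Share of genes (percent, horizontal axis) with at least 1 UGUANAUA match in the 200 bases after the stop codon, for the 69 mitoribosomal genes (top), 7 other gene lists and all protein-coding genes tested. The mitoribosomal genes reach 98.6%, beside 14.5% of protein-coding genes, 14.3% of oxidative phosphorylation genes and 4.38% of cytosolic ribosomal protein genes, while the 5 other lists of mitochondrial translation and gene expression lie between 70.0% (translation factors) and 100%.

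The libraries held 31417222 and 36989697 counts in *tho2Δ* libraries 3 and 4, against 33543267 and 32401027 in WT libraries 3 and 4. *THO2* had 1 count in each *tho2Δ* library, against 4011 and 2457 counts in WT. *URA3* and *MET15* (listed as *MET17*) had 0 counts in all 4 libraries. *LEU2*, which both strains are stated to lack, had 511 and 4276 counts in *tho2Δ* libraries 3 and 4, against 0 and 2512 counts in WT libraries 3 and 4. The *LEU2* reads of 3 libraries therefore go against the stated genotype, and each main result is also given without single libraries. Their part in any result was not tested. *STE2*, the receptor gene of MATa cells, was at 1158 and 966 CPM (counts per library size after TMM scaling) in *tho2Δ*, against 954 and 833 CPM in WT, and *STE3*, that of MATα cells, was at 2.87 and 2.42 CPM in *tho2Δ*, against 4.43 and 5.12 CPM in WT. The 2 WT libraries stood further apart than the *tho2Δ* libraries, with a median absolute log2 difference per gene of 0.244 in WT and 0.0919 in *tho2Δ*. TMM, which corrects for a few RNAs that take up many reads, gave factors of 1.18 and 1.17 in *tho2Δ*, against 1.003 and 0.723 in WT.

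Most mitoribosomal mRNAs kept levels in *tho2Δ* that the test did not separate from WT. Of the 69 genes, all of which passed the count filter, 3 were higher in *tho2Δ*, 0 were lower and 66 did not pass (edgeR's quasi-likelihood test, adjusted p under 0.05 over 5890 genes). Over all genes tested, 38.0% passed, 18.8% as higher and 19.1% as lower in *tho2Δ*. At an unadjusted p under 0.05, 11 members were higher and 1 was lower, beside 25.4% and 24.7% of all genes. DESeq2 called 3 members higher and 1 lower, beside 36.1% of 6325 genes, 1086 as higher and 1200 as lower. In bulk RNA a change in every cell and a change in some of the cells cannot be told apart. The median log2 fold change of the members was 0.13, with quartiles at -0.01 and 0.28, whereas that of all genes tested was 0.01, with quartiles at -0.41 and 0.43. The log2 fold change was positive in 51 members and negative in 18.

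On the TMM scale, the intervals limit how large a change these libraries leave room for. They do not include the uncertainty of the scale itself. With library totals in place of TMM the median log2 fold change was 0.58 for the members and 0.45 for all genes tested. In 61 of the 69 members (88.4%) the whole 95% interval lay within 2-fold of no change, and in 36 it lay within 1.5-fold. Over all genes tested, 58.8% had such an interval within 2-fold. The median SE was 0.15 on the log2 scale for the members and for all genes alike. In 8 members the interval reached beyond 2-fold, on the lower side in 3 and on the higher side in 5.

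**Figure D2:**
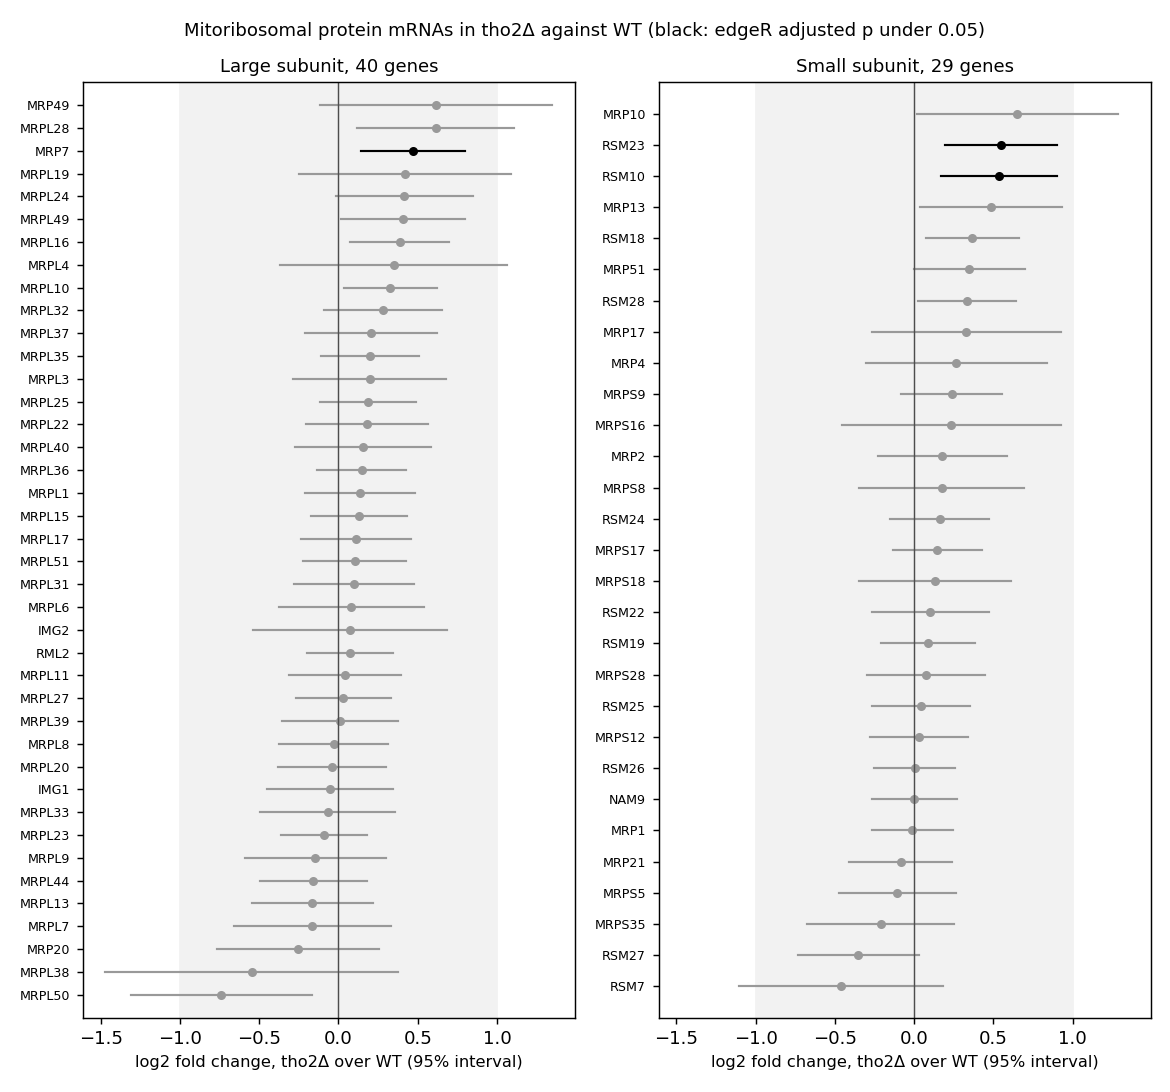
Log2 fold change, *tho2Δ* over WT, of each of the 40 large-subunit (left) and 29 small-subunit genes (right), with the 95% interval as a line. Black marks the 3 genes past the threshold (*MRP7*, *RSM10*, *RSM23*), grey the other 66, and the shaded band spans 2-fold either way. Points run between -0.74 (*MRPL50*) and 0.65 (*MRP10*).

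Of the 3 genes called higher in *tho2Δ*, 2 encode small-subunit proteins and 1 a large-subunit protein. *RSM23* encodes mS29, a small-subunit protein added in mitochondria and kin of human DAP3. It was at 47.5 and 48.3 CPM in *tho2Δ* libraries 3 and 4, against 36.1 and 29.4 CPM in WT libraries 3 and 4. Both *tho2Δ* libraries lay above both WT libraries. The log2 fold change was 0.55 (SE 0.14, adjusted p = 0.032 from edgeR with Benjamini-Hochberg adjustment), or 1.46-fold with a 95% interval from 1.14-fold to 1.87-fold.

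*RSM10* encodes the kin of bacterial S10, a protein of the small-subunit head. It was at 49.6 and 50.6 CPM in *tho2Δ*, against 38.4 and 30.7 CPM in WT, again without overlap. Its log2 fold change was 0.54 (SE 0.15, edgeR adjusted p = 0.038). *MRP7*, the gene for the kin of bacterial L27, which lies close to the peptidyl transferase center in bacteria, was at 78.5 and 77.8 CPM in *tho2Δ*, against 62.0 and 50.9 CPM in WT. Its log2 fold change was 0.47 (SE 0.13, edgeR adjusted p = 0.040). In each of these 3 genes the *tho2Δ* libraries were nearly equal, and WT library 4 was the lowest of all.

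The calls depended on single libraries. Without *tho2Δ* library 3 the edgeR adjusted p was 0.20 for *RSM23*, 0.21 for *RSM10* and 0.25 for *MRP7*, and without *tho2Δ* library 4 it was 0.25, 0.26 and 0.23 for the same genes, so that 0 members were called in either case. Without WT library 3, which has no *LEU2* reads, 26 members were higher and 9 lower, and without WT library 4, 7 were higher and 1 lower. Leaving out a WT library leaves the closely matching *tho2Δ* libraries as the only source of the spread. All 3 genes were called without either WT library, with log2 fold changes of 0.68, 0.68 and 0.59 without WT library 3 and 0.40, 0.37 and 0.33 without WT library 4 for *RSM23*, *RSM10* and *MRP7*. Over all genes tested, 9.2% and 8.5% were called without *tho2Δ* library 3 and 4, and 61.2% and 54.2% without WT library 3 and 4.

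*MRPL50*, which encodes the kin of bacterial L9, had the lowest log2 fold change and was singled out after its values were seen. It was at 23.2 and 24.4 CPM in *tho2Δ*, against 30.9 and 48.6 CPM in WT. Both *tho2Δ* libraries lay below both WT libraries. The log2 fold change was -0.74 (SE 0.23), and the adjusted p of 0.052 from edgeR missed the threshold, whereas DESeq2 gave an adjusted p of 0.015. The gene was lower without WT library 3 (log2 fold change -1.05) and without WT library 4 (-0.39), both past the edgeR threshold. It did not pass without *tho2Δ* library 3 or 4 (edgeR adjusted p = 0.22 and 0.21). With library totals the log2 fold change was -0.24 (edgeR adjusted p = 0.47), and on the log2(TPM + 1) scale it was -0.30 (limma adjusted p = 0.25).

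In *MRPL38* the sign depended on the WT library used. The gene, for the kin of bacterial L14, was measured at 29.7 and 28.2 CPM in *tho2Δ*, against 26.1 and 58.7 CPM in WT. The *tho2Δ* values lay between the WT values. The log2 fold change was -0.55 (SE 0.37, edgeR adjusted p = 0.29) over the 4 libraries. It was -1.05 without WT library 3 and past the threshold there, and 0.14 without WT library 4, where it did not pass. *RSM7*, for the kin of bacterial S7 and also chosen after its values were seen, was at 56.9 and 57.8 CPM in *tho2Δ*, against 58.2 and 100 CPM in WT. Its log2 fold change was -0.46 (SE 0.26, edgeR adjusted p = 0.21), and without WT library 4 it was -0.03.

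On the other side stood 3 short, mitochondria-specific proteins. *MRP10*, for a small-subunit protein of the twin CX9C family, was at 16.8 and 16.3 CPM in *tho2Δ*, against 13.1 and 7.81 CPM in WT. *MRP49*, for the large-subunit protein mL61, was at 16.3 and 15.7 CPM in *tho2Δ*, against 13.5 and 7.22 CPM in WT. *MRPL28*, for mL40, was at 16.05 and 14.2 CPM in *tho2Δ*, against 11.5 and 8.24 CPM in WT. In all 3 both *tho2Δ* libraries lay above both WT libraries, and WT library 4 was lowest. Their log2 fold changes of 0.65, 0.62 and 0.61 (SE 0.25, 0.29 and 0.20) were higher than those of the called genes, but with edgeR adjusted p of 0.094, 0.15 and 0.059 they did not pass. *MRP10* and *MRPL28* were chosen after their values were seen.

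**Figure D3:**
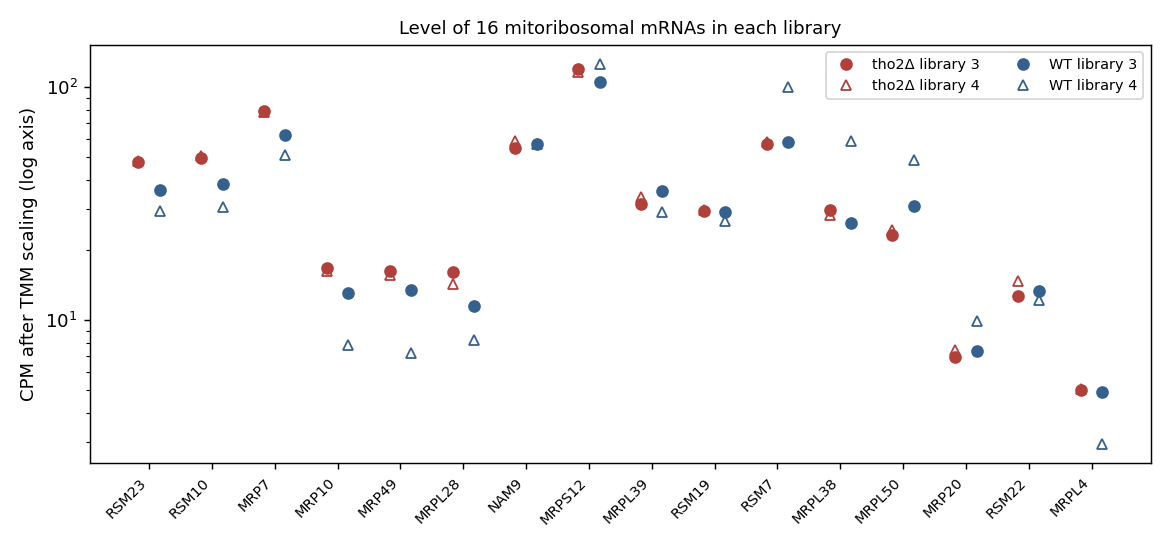
CPM after TMM scaling (log axis) of 16 named mitoribosomal mRNAs in each library, with *tho2Δ* (red) left of WT (blue), and library 3 as filled circles and library 4 as open triangles. CPM is not corrected for length, so heights compare libraries within a gene. The *tho2Δ* libraries nearly coincide, whereas WT libraries are far apart in *MRPL38* (26.1 and 58.7 CPM) and *MRP49* (13.5 and 7.22 CPM).

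*NAM9* lies on chromosome XIV at 368595-370055 (R64), on the same arm as the deleted *THO2* (360924-365717), with *YSF3* and *SRV2* between them. It encodes the kin of bacterial S4 and was first found as a suppressor of mitochondrial mutations. It was at 54.9 and 58.8 CPM in *tho2Δ*, against 56.8 and 56.9 CPM in WT. The WT values lay between the *tho2Δ* values. The log2 fold change was 0.00 (SE 0.11, edgeR adjusted p = 0.997), with a 95% interval from -0.27 to 0.27.

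Counted without a test, both *tho2Δ* libraries were above both WT libraries in 26 members, below them in 5 and interleaved with them in 38. Over all genes tested, 38.6% lay above and 36.3% below. The 5 members below were *MRPL50*, *RSM7*, *RSM27*, *MRPL44* and *MRPL23*. *MRPL23* shows how small such a separation can be, at 43.7 and 42.7 CPM in *tho2Δ*, against 46.0 and 46.0 CPM in WT (log2 fold change -0.09, SE 0.11). These genes were named after their values were seen.

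The *tho2Δ* libraries were closer to each other than the WT libraries in the members as well. The log2 ratio of library 4 to library 3 ran between -0.21 and 0.34 in *tho2Δ* and between -0.90 and 1.17 in WT. No member differed by more than 0.5 between the *tho2Δ* libraries, whereas 16 of the 69 (23.2%) did between the WT libraries, 5 with the higher value in library 4 and 11 with the lower. Over all genes tested, 4.25% differed by more than 0.5 in *tho2Δ* and 21.9% in WT. The largest differences in *tho2Δ* were 0.34 in *MRP4*, for the kin of bacterial S2, at 26.0 and 32.8 CPM, and 0.23 in *MRPL22*, for the kin of bacterial L22, which lines the exit tunnel in bacteria, at 31.9 and 37.4 CPM. In WT, *MRP4* was at 29.2 and 19.6 CPM and *MRPL22* at 33.4 and 27.8 CPM. Neither gene was called.

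**Figure D4:**
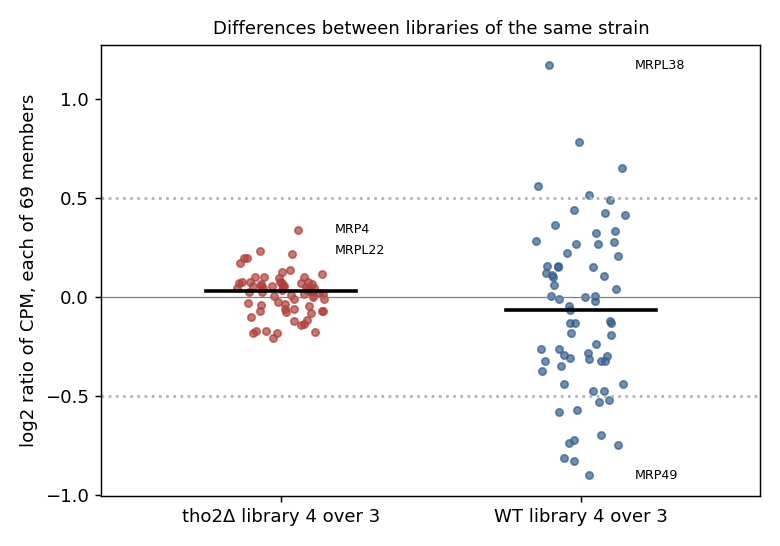
Log2 ratio of CPM in library 4 over library 3 for each of the 69 members, in *tho2Δ* (left) and in WT (right), with the median as a black bar and dotted lines at 0.5 either way. The *tho2Δ* ratios span -0.21 to 0.34 and the WT ratios -0.90 (*MRP49*) to 1.17 (*MRPL38*).

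Counts and medians were similar by subunit and by origin, though the difference between these groups was not tested. In the large subunit 1 of 40 genes was higher and 0 were lower, with a median log2 fold change of 0.11. In the small subunit 2 of 29 were higher and 0 were lower, with a median of 0.15. The 43 kin of bacterial proteins had a median of 0.14 with 2 called higher, and the 25 mitochondria-specific proteins had a median of 0.11 with 1 called higher. The summed CPM of the large-subunit genes was 1296 and 1297 in *tho2Δ*, against 1206 and 1249 in WT. That of the small-subunit genes was 1211 and 1230 in *tho2Δ*, against 1132 and 1141 in WT. Over all 69 genes the sum averaged 2517 ± 14.1 CPM in *tho2Δ* and 2364 ± 36.5 CPM in WT (SD, n = 2 each). With 2 libraries in each strain no exact permutation test of this sum can pass a threshold of 0.05, and none was run.

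The amount in the raw reads depends on the scale. The 69 genes took 0.295% and 0.296% of all counts in *tho2Δ*, against 0.234% and 0.173% in WT. With library totals in place of TMM the median log2 fold change was 0.58 for the members and 0.45 for all genes tested, and on the log2(TPM + 1) scale it was 0.52 and 0.39. Relative to the median of all genes, the members were 0.12 higher with TMM, 0.13 higher with library totals and 0.13 higher on the log2(TPM + 1) scale. With TMM and single libraries left out this difference was 0.12 without *tho2Δ* library 3, 0.082 without *tho2Δ* library 4, 0.11 without WT library 3 and 0.061 without WT library 4. Over all genes, library totals gave 1207 higher and 303 lower, against 1110 higher and 1127 lower with TMM. Among the members they called 3 as higher, of which *RSM23* was also called with TMM, while *MRP51* and *RSM18* were not (edgeR adjusted p = 0.0998 and 0.058 with TMM). Of the 18 members that were negative with TMM, 16 were positive under library totals, and no member turned the other way. Over all 13 settings, 31 members were positive throughout, *MRPL50* was negative throughout, and 37 had both signs.

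The members are not present in equal amounts. Per length, in TPM (the authors' length-scaled values, averaged over the 4 libraries), the middle 50% of the members lay between 31.7 and 61.4 TPM, and the highest was 52.2 times the lowest. *MRPS12*, for the kin of bacterial S12, which takes part in decoding, was highest with 253 and 250 TPM in *tho2Δ*, against 195 and 176 TPM in WT. *MRPL39*, for the kin of bacterial L33, had 145 and 158 TPM in *tho2Δ*, against 145 and 88.7 TPM in WT. *RSM19*, for the kin of bacterial S19, had 105 and 107 TPM in *tho2Δ*, against 91.1 and 62.2 TPM in WT. *RSM19* and *MRPS12* are neighbors on the minus strand of chromosome XIV, at 695052-695327 and 694361-694822. *MRPL39* has the shortest coding region of the group, 213 bases, a length at which TPM is least certain. On the TMM scale the log2 fold changes of these 3 genes were 0.03 for *MRPS12*, 0.01 for *MRPL39* and 0.09 for *RSM19*, and none passed the test.

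The lowest levels per length were those of *MRPL4*, *RSM22* and *MRP20*. *MRPL4*, for the kin of bacterial L29, had 5.13 and 5.25 TPM in *tho2Δ*, against 4.39 and 1.99 TPM in WT. *RSM22*, the member without a Puf3 element, had 6.61 and 7.78 TPM in *tho2Δ*, against 6.10 and 4.19 TPM in WT. *MRP20*, for the kin of bacterial L23 at the mouth of the exit tunnel, had 8.59 and 9.34 TPM in *tho2Δ*, against 7.998 and 8.13 TPM in WT. On the TMM scale their log2 fold changes were 0.35, 0.10 and -0.26 (SE 0.29, 0.15 and 0.20), none past the test. Across the 69 genes Spearman's rho of the log2 fold change was -0.29 with the mean TPM and 0.10 with the coding length. The mean TPM comes from the same 4 libraries as the fold change, and both values are descriptions only.

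The gene structures were alike. Coding regions ran from 213 to 1887 bases (median 714), and only *MRPL44* has an intron. The genes lie on 14 chromosomes. *MRPL51* and *MRP4* overlap an open reading frame on the opposite strand and *MRPL19* one on the same strand, and since no source names the strand setting of the counting, reads of such partners cannot be told apart. None of these 3 genes was called.

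In the 300 bases before the start codon, AATTTT (or AAAATT on the other strand) was found in 28 of the 69 members (40.6%), beside 54.6% of protein-coding genes tested and 57.7% of cytosolic ribosomal protein genes. CCAAT (or ATTGG), the core of the site of the Hap2/3/4/5 activator of respiratory genes, was found in 25 members (36.2%), beside 42.0% of protein-coding genes and 88.6% of the oxidative phosphorylation genes listed. Members with AATTTT had a median log2 fold change of 0.17 and those without it 0.11. Members with CCAAT had a median of 0.16 and those without it 0.10.

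Both regulators named above were measured. *PUF3* was at 27.1 and 35.2 CPM in *tho2Δ*, against 42.4 and 29.0 CPM in WT, with a log2 fold change of -0.20 (SE 0.23, edgeR adjusted p = 0.53). *HAP4*, the regulated subunit of the Hap complex, was at 113 and 131 CPM in *tho2Δ*, against 93.9 and 120 CPM in WT (log2 fold change 0.19, SE 0.15, edgeR adjusted p = 0.36). In both genes the libraries of the 2 strains overlapped. The other 763 protein-coding genes tested that carry a Puf3 element had a median log2 fold change of 0.07. Of these, 145 were higher (19.0%, beside 18.8% of all genes tested) and 119 lower (15.6%, beside 19.1%).

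The remaining genes of mitochondrial translation were taken from hand-written lists. Of 10 mitoribosomal proteins whose symbols fall outside the rule, such as *MNP1* and *MHR1*, 0 were called in either direction by edgeR (median 0.07). *YML6*, for the kin of bacterial L4, came nearest with a log2 fold change of 0.70 (SE 0.22, edgeR adjusted p = 0.053), and DESeq2 called 1 of the 10 higher. Of 13 genes of mitoribosome assembly and mitochondrial transcription, 0 were called by edgeR and 1 was called higher by DESeq2 (median 0.04). *MTF1*, for the specificity factor of the mitochondrial RNA polymerase, was at 23.1 and 21.3 CPM in *tho2Δ*, against 17.03 and 12.2 CPM in WT (log2 fold change 0.60, SE 0.19, edgeR adjusted p = 0.054). Without WT library 3, 3 genes of the first list were higher and 1 lower, and 2 of the second were higher and 4 lower. Without WT library 4 these counts were 1 and 0, and 2 and 1.

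The mitochondrial aminoacyl-tRNA synthetases, translation factors and translational activators together numbered 44 genes. Of these, 10 were called by edgeR, all as higher (22.7%, beside 18.8% of all genes tested). The difference from the members was not tested. Of 13 mitochondrial aminoacyl-tRNA synthetases 3 were higher and 0 lower (median 0.26). *SLM5*, for the asparaginyl enzyme, was at 20.3 and 19.5 CPM in *tho2Δ*, against 12.3 and 10.6 CPM in WT (log2 fold change 0.79, SE 0.14, edgeR adjusted p = 0.010). *MSF1* (phenylalanyl, 0.51) and *MSK1* (lysyl, 0.33) were the others. Of 10 translation factors 1 was higher and 0 lower (median 0.32). It was *MEF2*, for a GTPase of ribosome recycling, at 17.6 and 19.2 CPM in *tho2Δ*, against 8.71 and 8.28 CPM in WT (log2 fold change 1.11, SE 0.13, edgeR adjusted p = 0.004).

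Of 21 translational activators and membrane partners of the mitoribosome 6 were higher (28.6%, beside 18.8% of all genes tested) and 0 lower (median 0.32). *CBP6*, needed for translation of cytochrome *b*, was at 15.97 and 15.6 CPM in *tho2Δ*, against 8.68 and 6.66 CPM in WT (log2 fold change 1.03, SE 0.17, edgeR adjusted p = 0.009). *PET111*, the activator of *COX2*, had a log2 fold change of 0.78 and *ATP22*, the activator of *ATP6*, one of 0.76. Without *tho2Δ* library 3, 0 synthetases, 1 translation factor and 0 activators were called higher, and without *tho2Δ* library 4, 0 of each list. Without WT library 3 these counts were 5, 2 and 7, with 2, 2 and 1 genes of the same lists lower, and without WT library 4 they were 6, 3 and 11, with 0, 1 and 1 lower. DESeq2 called 1 translation factor lower. For these and the other lists, the shares of all genes called without single libraries are those given above with the members.

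The nuclear genes of oxidative phosphorylation were mostly higher and the cytosolic ribosomal protein genes mostly lower in *tho2Δ*. For oxidative phosphorylation 35 genes were listed, whose complexes hold the proteins made by the mitoribosome. Of these, 28 were higher (80.0%, beside 18.8% of all genes tested) and 0 lower (median 0.89). *CYT1*, cytochrome *c*1, was at 139 and 145 CPM in *tho2Δ*, against 42.7 and 38.0 CPM in WT (log2 fold change 1.81, SE 0.11, edgeR adjusted p = 0.001). Of 137 cytosolic ribosomal protein genes 0 were higher and 132 lower (96.35%, beside 19.1% of all genes tested, median -1.39). Among the lower genes was *RPS28B*, at 63.97 and 68.9 CPM in *tho2Δ*, against 179 and 172 CPM in WT. Without *tho2Δ* library 3, 12 oxidative phosphorylation genes were higher and 16 cytosolic ribosomal protein genes lower, and without *tho2Δ* library 4 these counts were 12 and 14. They were 32 and 135 without WT library 3, where 1 oxidative phosphorylation gene was lower and 1 cytosolic ribosomal protein gene higher, and 33 and 137 without WT library 4. The mitoribosomal median of 0.13 lay between those of both lists, and the difference between lists was not tested. The mitochondrially encoded genes were not analysed here.

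**Figure D5:**
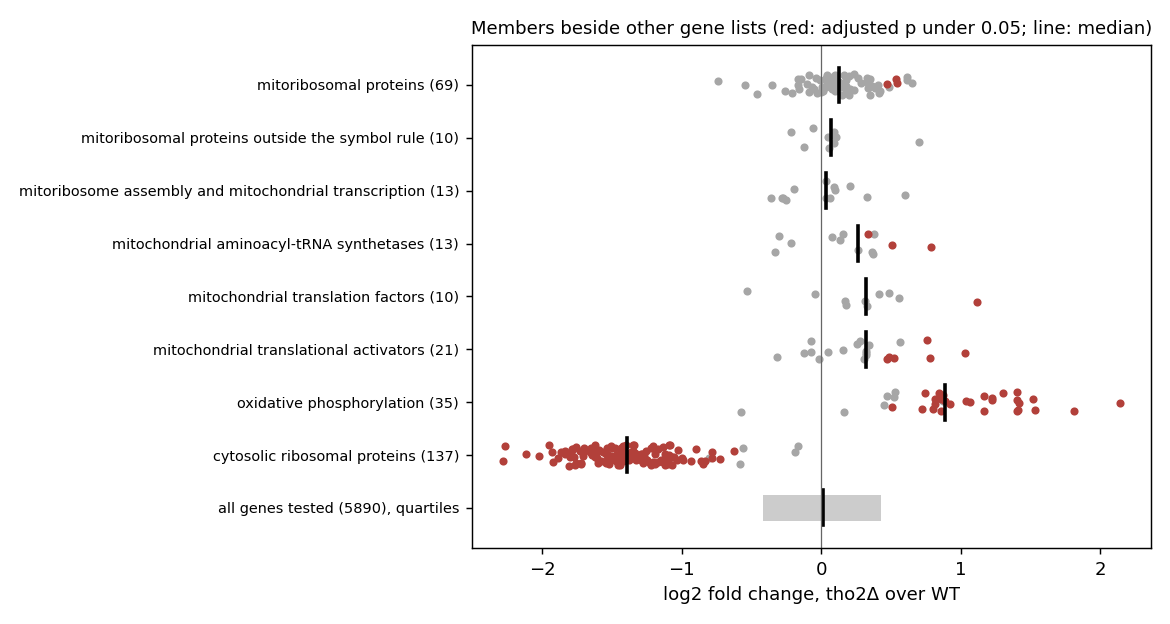
Log2 fold change, *tho2Δ* over WT, of single genes in the mitoribosomal list (top) and 7 other lists, with the number of genes in brackets, the median as a black line and genes past the edgeR threshold in red, and the quartiles of all 5890 genes tested as a bar at the bottom. Mitoribosomal genes center on 0.13, oxidative phosphorylation genes on 0.89 and cytosolic ribosomal protein genes on -1.39.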

How the data were processed

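Total RNA of 2 *tho2Δ* and 2 WT libraries was sequenced. The authors deposited 1 table with raw read counts, FPKM and TPM for each gene. The counts are whole numbers that the authors did not normalize, and the deposited TPM values are scaled by length. FPKM (4 columns) was left out. HISAT2 2.1.0, StringTie 1.3.4d, Trimmomatic and bcl2fastq 2.20.0 are named in the submitters' processing notes with build R64, but not their roles.

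Counts were tested with edgeR 4.0.16 in R 4.3.3 (quasi-likelihood, TMM, expression filter, genotype alone, Benjamini-Hochberg at 0.05 over all 5890 genes kept). The SE is the size of the log2 fold change over the root of the F statistic, and intervals are at 95%. A count of 0 allows 3 counts, worth 0.0812 and 0.0692 CPM in *tho2Δ* and 0.0892 and 0.128 CPM in WT, for counting error only. Each result was recomputed with library totals, with median-of-ratios factors, with DESeq2 1.42.0, with limma 3.58.1 on TPM of at least 1 on average (log2 after adding a pseudocount of 1 or 0.1), unfiltered, over genes averaging 50 counts or more, with replicate numbers as a block, and without each library in turn. In the last case the lone library was taken to vary like the other strain's. The edgeR script was also run on simulated counts with known changes. There all libraries had the same dispersion, whereas in these data the WT libraries stood further apart. Motifs were searched in Python 3.11.15 in the R64 sequence. The table has 3 emptied lines.

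The members and all lists were chosen with earlier results of these data known. Genes were named by rule: the 8 smallest p among called members in each direction, the 3 highest and 3 lowest mean TPM, the 2 largest differences between libraries of each strain, *NAM9*, called members that overlap another gene, up to 3 genes with the smallest p of each other list, and *PUF3*, *HAP4* and *MTF1*. Others are named as chosen after their values were seen.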

Additional observations from a re-analysis of the deposited data

How the results depend on the processing

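The median log2 fold change of the members, 0.13 with TMM, became 0.58 with library totals, 0.52 on the TPM scale with a pseudocount of 1 and 0.53 with one of 0.1, and ranged between 0.065 and 0.14 when single libraries were left out. The number of members higher in *tho2Δ*, 3 with TMM, was 5 on log2(TPM + 1) and ranged between 0 and 26 with single libraries left out. The number lower, 0 with TMM, was 1 with DESeq2 and ranged between 0 and 9. The same numbers over all genes ranged between 307 and 1790 (higher) and between 200 and 1847 (lower) with single libraries left out, and those lower numbered 303 with library totals, and on the TPM scale 348 with a pseudocount of 1 and 335 with one of 0.1. On log2(TPM + 1), 7.25% of the members were called, beside 26.5% of 5755 genes, 1179 of them as higher. With the replicate number as a block, 7 members were higher and 1 lower (11.6% called). Over all genes this setting called 36.1%, 1089 as higher and 1040 as lower. The labels do not say what the number marks. The deviations of same-numbered libraries did not correlate (r = 0.0015 over genes). With 2 libraries in each strain this cannot show whether same-numbered libraries shared a culture date or batch.

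The 3 members called higher had positive fold changes in all 13 settings and were called in 8 (*MRP7*), 9 (*RSM10*) and 10 (*RSM23*) of them. Of the 69 members, 32 were called in no setting, and most of the others only with WT library 3 left out. These tallies were not counted over all genes. The settings reuse the same 4 libraries, so such tallies are not independent support. The precision is set by the 2 WT libraries, which differ, so a member that did not pass is not shown to be equal in both strains.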
